A study of Drosophila melanogaster with 6 samples.

Results

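The sodium potassium pump genes of Drosophila melanogaster were described here in sorted T4/T5 neurons, which compute the direction of visual motion in the optic lobe. The members were chosen by name: Atpalpha for the catalytic alpha subunit, and nrv1, nrv2 and nrv3 for beta subunits. These are 4 genes of the 23932 annotated features in the deposited count table, and all 4 passed the filter on low counts. They were picked with their difference between the groups already known, so that difference is given below as a description and without a test.

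The pump is a P-type ATPase that uses ATP to move sodium out of the cell and potassium in, and so maintains the gradients on which action potentials and many carriers depend. The alpha subunit carries out transport, and a beta subunit is needed for the alpha subunit to fold and reach the membrane. In flies, Atpalpha mutants are known for paralysis after mechanical shock. In the hearing organ of the adult fly, Nrv3 protein is the beta subunit of the neurons, while Nrv1 and Nrv2 are found in support cells. Atpalpha and nrv2 are also required for septate junctions, the barrier junctions of insect epithelia and glia.

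The study knocked down Drgx, a PAIRED-like homeobox transcription factor gene, in T4/T5 neurons in larvae raised at 25 °C to the climbing L3 stage, the last larval stage. All animals carried UAS-CD8-GFP, a membrane-bound GFP, under R23G12-Gal4, the driver line by which the cells were sorted. The 3 knockdown libraries came from animals that also carried UAS-DRGX-IR, an inverted-repeat hairpin, and the 3 control libraries from animals with UAS-cherry-IR, a hairpin against a fluorescent protein absent from flies. Each transgene was present in 1 copy, and the labels do not say in which other cells the driver is active. The labels do not say whether the libraries of a group came from separate animals, so p-values measure only the spread between these libraries.

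Library totals ran from 29587960 to 44054609 counts. Drgx was at 2142 ± 27.6 CPM (TMM-normalised counts scaled to a common library size; SD, n = 3) in control and at 707 ± 37.8 CPM in knockdown, or 33.0% of control. Knockdown replicate 2 stood apart from its group on the second principal component, at 50.6 where its fellow replicates 1 and 3 had −35.5 and −39.1. The T4/T5 lineage markers were all detected, and so were all 6 neuronal markers. Of the lineage markers SoxN was the highest in control, with a mean of 1780 CPM, and had 1173 CPM in knockdown. Of 5 hemocyte markers 3 had no count in any library, as did 2 of 5 photoreceptor markers, and the summed level of either list was at most 6.58 CPM in any library. Among the hemocyte markers without counts, srp shares 938 bp of exon with a noncoding RNA on the same strand. He shares 78 bp with NimB5 on the opposite strand. Absence of srp and He RNA cannot be read from those counts.

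Atpalpha (FBgn0002921) spans 20948714 to 20976239 on the plus strand of 3R in BDGP6.54, with 11 annotated transcripts. It was one of the most abundant RNAs of these neurons, ranking 39th of 9932 tested features by mean control CPM. Control replicates 1, 2 and 3 had 2095, 2141 and 2098 CPM. Knockdown replicates 1, 2 and 3 had 1731, 1630 and 1666 CPM. Every knockdown library lay below every control library. The means were 2111 ± 25.8 and 1675 ± 51.2 CPM (SD, n = 3 each), so knockdown was at 79.4% of control. The fitted log2 fold change was −0.33 (SE 0.0416).

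Among the beta subunit genes, nrv3 (FBgn0032946, 2L, 21380000 to 21393319, plus strand) had the most counts. The controls had 723.2, 826.2 and 824.4 CPM, and the knockdown libraries had 633.8, 680.3 and 652.5 CPM. The groups did not overlap, but the lowest control library, replicate 1, lay closer to the knockdown libraries than to the other controls. The means were 791.3 ± 58.9 and 655.6 ± 23.4 CPM (SD, n = 3 each), or 82.8% of control, with a log2 fold change of −0.27 (SE 0.0645). The gene spans 6 annotated transposable element insertions, none of which touches its exons. Counts assigned to these insertions equalled 0.626% to 1.03% of the nrv3 count of a library, and of the 5 insertions that passed the filter 0 were called by edgeR.

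nrv2 (FBgn0015777, 2L, 6789770 to 6798862, minus strand) went the other way. The controls had 453.7, 442.3 and 485.3 CPM. The knockdown libraries had 630.0, 570.8 and 599.6 CPM, each above every control. The means were 460.4 ± 22.3 and 600.1 ± 29.6 CPM (SD, n = 3 each), a 1.30-fold difference and a log2 fold change of 0.38 (SE 0.0617).

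nrv1 (FBgn0015776, 2L, 6778555 to 6786861, minus strand) was the scarcest member and the one with the largest fold difference. Its raw counts were 217, 508 and 444 in the control libraries and 988, 950 and 1064 in the knockdown libraries. In CPM these were 6.77, 11.7 and 12.9 in control and 30.5, 32.4 and 28.2 in knockdown. Every knockdown library was above every control, and control replicate 1 was the lowest. The means were 10.5 ± 3.24 and 30.3 ± 2.10 CPM (SD, n = 3 each), a 2.90-fold difference and a log2 fold change of 1.54 (SE 0.228). Without control replicate 1 the log2 fold change was 1.30.

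**Figure D1:**
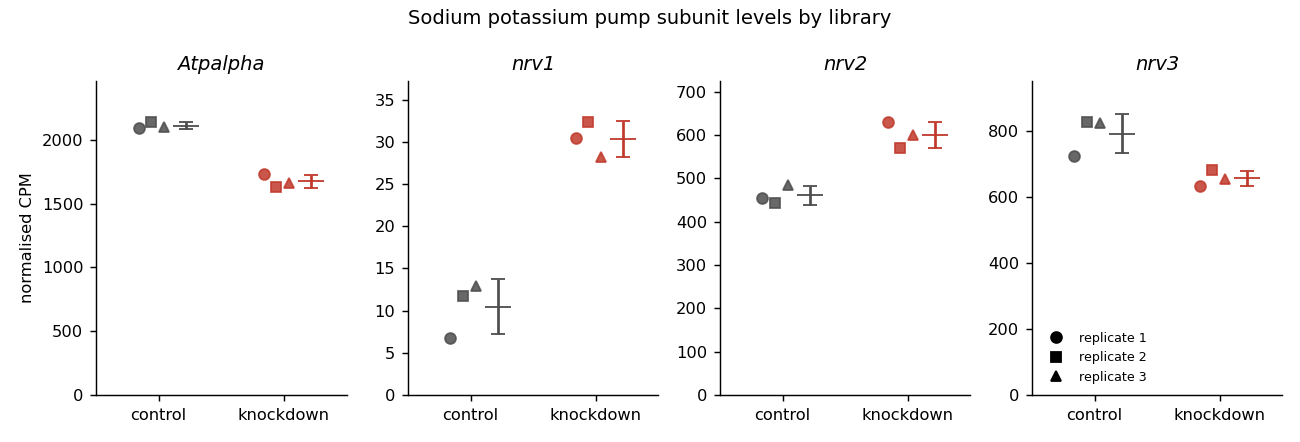
Normalised CPM of Atpalpha, nrv1, nrv2 and nrv3 (vertical axes, each from 0) in the 3 control and 3 knockdown libraries, where symbols give the replicate number and bars the mean with its SD. Knockdown libraries lie below all controls for Atpalpha and nrv3 and above all controls for nrv1 and nrv2.

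nrv1 and nrv2 are neighbours on the same strand, with 2908 bp and no other annotated gene between them, and nrv2 lies upstream. Their exons share no bases with each other or with other annotated genes, and neither do those of Atpalpha and nrv3. On the other side of nrv1, 110 bp away, CG17378 was at 6.40 ± 2.35 CPM in control and 11.5 ± 4.34 CPM in knockdown (SD, n = 3 each). The CG17378 groups overlapped, and its edgeR adjusted p was 0.247.

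Over all features, edgeR called 617 of 9932 (6.21%) at an adjusted p under 0.05, 2.10% as higher and 4.11% as lower in knockdown. Groups did not overlap for 23.3% of features, 10.9% with knockdown higher and 12.4% with knockdown lower. All 4 members were among both, 2 higher and 2 lower in knockdown. Because this contrast chose them, nothing is read from that count. Leaving out any of control replicates 2 and 3 or knockdown replicates 1 and 3 brought it to 3, without nrv3. In size, Atpalpha, nrv2 and nrv3 were small among the calls: 93.4%, 89.3% and 96.6% of the called features had a larger absolute log2 fold change. For nrv1 that share was 32.9%. The median absolute log2 fold change of the calls was 0.97.

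To compare subunits with each other, CPM was divided by the merged exon length of each gene in kilobases. On this scale Atpalpha was highest in control, at 316 ± 3.86 CPM per kilobase, and ranked 123rd of 8538 tested protein-coding genes. nrv3 followed at 165.9 ± 12.4, then nrv2 at 129 ± 6.24 and nrv1 at 4.76 ± 1.48 CPM per kilobase (SD, n = 3 each). In control the library values of neighbours in that order did not overlap. In knockdown the order of the beta genes changed, with nrv2 at 168.2 ± 8.29, nrv3 at 137.4 ± 4.91 and nrv1 at 13.8 ± 0.957 CPM per kilobase. The control order of nrv2 and nrv3 depends on the length used: per kilobase of the longest annotated transcript they were at 172.6 ± 8.35 and 170.6 ± 12.7, a difference smaller than the spread.

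The makeup of the beta subunit RNA therefore differed between the groups. nrv3 made up 53.8%, 57.3% and 54.9% of the summed beta level per kilobase in the control libraries and 41.1%, 44.9% and 43.1% in the knockdown libraries. The share of nrv2 was 45.1%, 41.0% and 43.2% in control against 54.6%, 50.4% and 52.9% in knockdown. nrv1 contributed 1.10% to 1.87% in control and 4.04% to 4.64% in knockdown. None of these shares overlapped between the groups.

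The summed beta level moved little, from 299.7 ± 16.6 to 319.5 ± 3.37 CPM per kilobase (SD, n = 3 each), a ratio of 1.07. The alpha level was below it in every knockdown library and close to it in control. Atpalpha over the summed beta genes was 1.11, 1.06 and 0.998 in the control libraries and 0.801, 0.769 and 0.785 in the knockdown libraries. These are ratios of RNA levels within a library, so no scaling between libraries enters them, and they do not measure subunit protein. Like the fold changes, they come from the contrast that chose the members and carry no test.

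**Figure D2:**
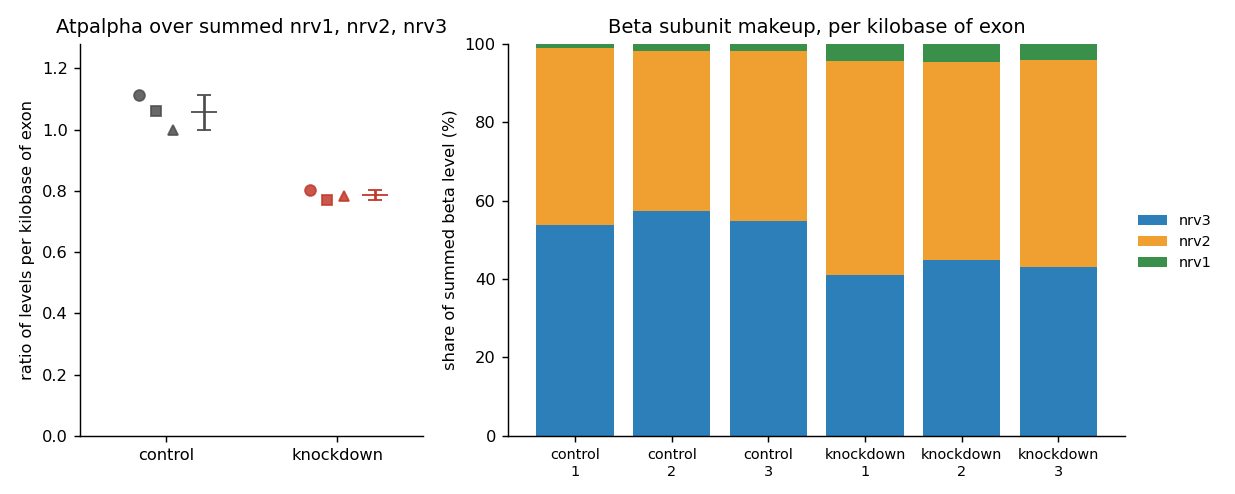
Left, the ratio of Atpalpha to the summed nrv1, nrv2 and nrv3 levels per kilobase of exon in each library, with symbols for replicates 1 (circle), 2 (square) and 3 (triangle) and bars for the mean with its SD; right, the share of each beta gene in the summed beta level of each library, in percent. The ratio is 0.998 to 1.11 in control and 0.769 to 0.801 in knockdown, and nrv3 is the largest share in the control libraries and nrv2 in the knockdown libraries.

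Likeness to each member was measured across the 6 libraries by the root mean square difference of centred log2 CPM. This measure includes the difference between the groups, so it is not separate from the contrast that chose the members. Likeness within a group was not tested. The tested protein-coding genes most like each member were sought among genes with a mean level within 4-fold. For Atpalpha they were Appl, the fly relative of the amyloid precursor protein gene, with a difference of 0.0308, and the synaptotagmin gene Syt4, at 0.0447, where the median of 311 genes compared was 0.18. Appl went from 2281 ± 50.7 to 1800 ± 106 CPM. For nrv3 they were miple1, a gene for a midkine-like growth factor (0.0165), and the G protein beta subunit gene Gbeta13F (0.0376), among 1062 genes with a median of 0.172. miple1 went from 1472 ± 87.3 to 1217 ± 34.3 CPM.

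For nrv2 the nearest were Pdcd4 (0.0539) and the odorant-binding protein gene Obp99a (0.0555), among 1459 genes with a median of 0.223. Obp99a went from 127.1 ± 8.29 to 172.8 ± 6.91 CPM. For nrv1 they were beat-VII, of the beaten path family of cell-surface genes (0.222), and the glutathione S-transferase gene GstS1 (0.223), among 4159 genes with a median of 0.861. beat-VII went from 29.2 ± 4.85 to 83.8 ± 4.15 CPM (SD, n = 3 each).

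The alpha and beta subunits have paralogs elsewhere in the genome, and these were nearly silent. Of 6 paralogs listed, JYalpha and CG11703 had no count in any library, and CG45062, CG45063 and CG5250 did not pass the filter. The beta-like CG33310 passed, at 2.33 ± 1.06 CPM in control and 2.26 ± 0.794 CPM in knockdown (edgeR adjusted p 0.982). In the control mean, the other P-type ATPases were led by PMCA, the plasma membrane calcium pump, at 786.2 ± 87.5 CPM. Of 11 of these tested, edgeR called 0 at an adjusted p under 0.05, where 6.21% of all features were called, and DESeq2 and limma-voom called 0. At an unadjusted p under 0.05 edgeR called 2 of these genes, where all features gave 1630 of 9932. Their median log2 fold change was −0.05, where that of all tested features was 2.65e-05. PMCA was at −0.05 (SE 0.078), and shares 3107 bp of exon with Rnf11 on the opposite strand, so its value is uncertain to that extent.

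Septate junction genes other than the pump all passed the filter on low counts, 20 of 20. Of these, edgeR called 4 at an adjusted p under 0.05, where 6.21% of all features were called. Passing the filter did not require counts in every library, and Gli had none in knockdown replicate 2. The gene bark had only 0.138 and 0.116 CPM in control replicates 2 and 3. Lac, an immunoglobulin-domain adhesion gene, fell from 2218 ± 35.5 to 1459 ± 85 CPM (log2 fold change −0.60, SE 0.0504, edgeR adjusted p 4.79e-05). Nrg, the fly L1-type adhesion molecule, fell from 533.8 ± 5.59 to 362.6 ± 20.7 CPM (−0.56, SE 0.0597, adjusted p 2.89e-04). scrib, a cell polarity scaffold, fell from 121.6 ± 10.9 to 43.3 ± 7.65 CPM (−1.49, SE 0.139, adjusted p 1.08e-04). Nrx-IV, the neurexin of the junction, rose from 1489 ± 20.9 to 1762 ± 29.8 CPM (0.24, SE 0.0407, adjusted p 0.00508). Within this list the most abundant genes thus changed in opposite directions, as did the members nrv2 and Atpalpha. The list's median log2 fold change was −0.02, and 9 of the 20 lay above 0.

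Of 10 sodium channel genes and subunits, edgeR called 1 at an adjusted p under 0.05, where 6.21% of all features were called. At an unadjusted p under 0.05 it called 5, where all features gave 1630 of 9932. The groups of 6 of the 10 did not overlap, some with knockdown higher and some lower, where 23.3% of all features had groups that did not overlap. The called gene na, the sodium leak channel gene, fell from 57.0 ± 5.34 to 34.4 ± 7.01 CPM (−0.73, SE 0.157, edgeR adjusted p 0.0222). With 1 library left out, 5 of the 6 fits no longer called it, with adjusted p from 0.0552 to 0.0976, and held only without knockdown replicate 3. The highest of this list, the voltage-gated channel relative NaCP60E, had 70.8 to 80.4 CPM in the control libraries and 47.1 to 66.2 CPM in the knockdown libraries (adjusted p 0.208), and shares 173 bp of exon with pain. para, the main voltage-gated sodium channel gene, was named after its values were seen. It had 45.8, 30.1 and 34.7 CPM in control and 47.8, 55.1 and 60.3 CPM in knockdown, each knockdown library above every control. Its log2 fold change was 0.56 (SE 0.166, adjusted p 0.0913), and it passed as higher with DESeq2, limma-voom or at least 10 counts in every library, and without control replicate 1. The list's median log2 fold change was 0.19.

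Of 10 tested sodium, calcium and chloride carriers, 1 passed. Nckx30C, a sodium, calcium and potassium exchanger that runs on the gradients set by the pump, had 113.0, 104.3 and 96.9 CPM in the controls. The knockdown libraries had 30.2, 35.5 and 30.9 CPM, with no overlap. It fell by 1.70 on the log2 scale (SE 0.111, edgeR adjusted p 7.80e-06). Nhe3, a sodium proton exchanger and the highest of the list, was at 179.7 ± 8.82 and 182 ± 11.1 CPM (log2 fold change 0.02, SE 0.0761, adjusted p 0.946). The list's median was 0.18.

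Of the potassium channels that set the resting potential, Task6 fell from 158.3 ± 4.66 to 103 ± 5.51 CPM (−0.62, SE 0.0773, edgeR adjusted p 7.85e-04). It was the only call among 5 tested inward rectifier and leak channels. Task7, named after its values were seen, was at 141.5 ± 4.95 and 106.1 ± 15.8 CPM (−0.42, adjusted p 0.0597) and passed with DESeq2, limma-voom, no filter or at least 10 counts in every library, and without knockdown replicate 1. The list's median was −0.42. Irk1 and galene had no count in any library. Irk1 shares 3202 bp of exon with CG46310 on the same strand, and galene shares 424 bp with Klp61F on the opposite strand. The counting program and its use of strand are not given, so absence of these RNAs cannot be read from those counts.

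Genes that supply the pump with ATP were led by Argk1, an arginine kinase that buffers ATP, at 1767 ± 19.6 CPM in control and 1743 ± 35.2 CPM in knockdown (−0.02, SE 0.0402, edgeR adjusted p 0.895). Of 11 tested, 2 passed (18.2%), where 6.21% of all features passed. sesB, the mitochondrial ADP/ATP carrier, rose from 286.6 ± 6.55 to 401.6 ± 19.3 CPM (0.49, SE 0.0614, adjusted p 8.21e-04) and shares 102 bp of exon with its neighbour Ant2. PyK, pyruvate kinase, rose from 29.4 ± 5.45 to 48.9 ± 3.62 CPM (0.73, SE 0.149, adjusted p 0.0157). With 1 library left out, 4 of the 6 fits no longer called PyK, at adjusted p from 0.0587 to 0.0861. The list's median was 0.22.

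**Figure D3:**
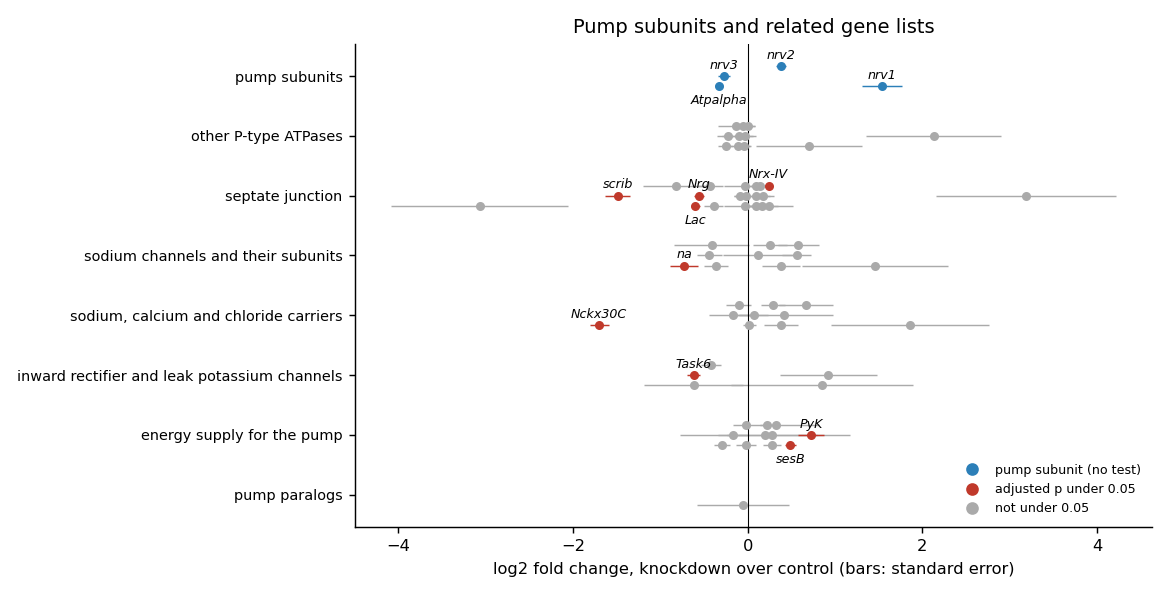
Log2 fold change of knockdown over control (horizontal axis, bars for the standard error) for the pump subunits, shown without a test, and for every tested gene of the related lists, with named red points at an edgeR adjusted p under 0.05. Falls of Nckx30C and scrib exceed those of Atpalpha and nrv3, and the list medians lie between −0.42 and 0.22.

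Glia also use the pump, and an nrv2 driver line is active in fly glia. The 9 glial markers were all detected. Of these, 2 (22.2%), Gs2 and loco, passed as higher in knockdown, where 2.10% of all features passed as higher. Of the 9, 8 had a log2 fold change above 0, Gat was at −0.60, and the list median was 0.43. Their summed level was 168.1, 194.3 and 220.7 CPM in control and 272.4, 267.4 and 265.6 CPM in knockdown. That sum was 1.38-fold higher in knockdown, where nrv2 was 1.30-fold and nrv1 2.90-fold higher. The highest marker, the glutamate transporter gene Eaat1, was at 67.8 ± 13.9 and 88.8 ± 8.51 CPM (edgeR adjusted p 0.213).

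repo, the defining glial transcription factor, was at 8.08, 8.32 and 12.8 CPM in control and 10.8, 11 and 7.68 CPM in knockdown, with overlapping groups (log2 fold change 0.01, SE 0.251, adjusted p 0.991). The exons of repo overlap CG7156 on the opposite strand by 183 bp, and loco shares 1032 bp with an antisense RNA, so both values are uncertain to that extent. In control, nrv2 was at 460.4 CPM and the 9 glial markers summed to 194.4 CPM. These levels do not show how much of the nrv2 RNA came from glia. The part of glial RNA in the nrv1 and nrv2 differences was not tested, and in bulk RNA fewer cells of a type and less RNA per cell cannot be told apart.

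**Figure D4:**
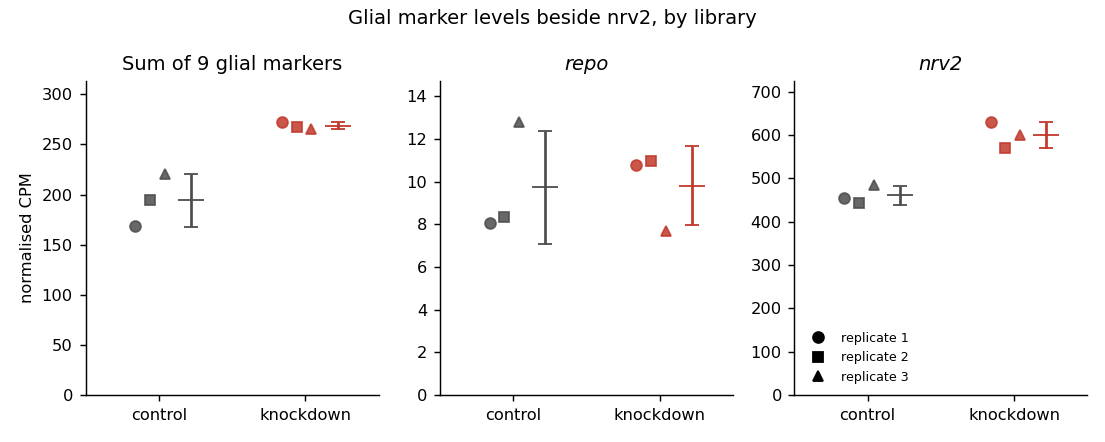
Summed normalised CPM of 9 glial markers, CPM of repo and CPM of nrv2 (vertical axes, each from 0) in each control and knockdown library, with bars for the mean and its SD. The marker sum and nrv2 are higher in all 3 knockdown libraries than in any control, while repo overlaps between the groups.

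Among the 6 neuronal markers, 4 passed (66.7%), 1 higher and 3 lower, where 6.21% of all features passed. onecut, a homeobox gene and the highest of them in the mean of all 6 libraries, was at 990.9 ± 30.5 CPM in control and 1179 ± 132 CPM in knockdown (log2 fold change 0.25, SE 0.0754, edgeR adjusted p 0.0971). elav, the pan-neuronal RNA-binding protein gene and the highest in control, was at 1026 ± 11.6 and 1010 ± 30 CPM (−0.02, SE 0.0461, adjusted p 0.895). The exons of elav share 2994 bp with lncRNA:enrr on the same strand and 673 bp with arg on the opposite strand. Its value is uncertain to that extent. fne, an RNA-binding protein gene named after its values were seen, rose from 544.3 ± 47.6 to 1277 ± 70.3 CPM (1.23, SE 0.0726, adjusted p 3.97e-06). The synaptic genes nSyb, brp and Syt1, likewise named, fell by 0.48, 0.78 and 0.46 on the log2 scale, alongside Atpalpha and nrv3. Of the 9 T4/T5 lineage markers, 4 passed (44.4%), all lower. SoxN was at 65.9% of control. Sox102F, dac and bi, named after their values were seen, were at 24.1%, 54.3% and 73.7% of control. The uncalled TfAP-2, grn and ato were at 97.2%, 95.6% and 82.05% of control, and acj6 and fd59A at 116.3% and 198.3%. The summed level of the 9 was 5149 ± 145 CPM in control and 3403 ± 88.1 CPM in knockdown, a ratio of 0.661. In that sum the most abundant genes of the control libraries, SoxN and Sox102F, weigh most. In this list 2 of the 9 had a log2 fold change above 0, and the median was −0.29. The 8 progenitor and cell cycle markers gave 0 calls by edgeR, 3 at an unadjusted p under 0.05, and a summed level of 269.7 ± 16.3 CPM in control and 306.9 ± 8.38 CPM in knockdown. In that list stg, a cell cycle phosphatase gene, was the highest and passed with DESeq2 alone among the fits on all libraries, at 0.33 (adjusted p 0.034). The part of these shifts in the pump gene differences was not tested.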

How the data were processed

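RNA of sorted cells was amplified with SMART-Seq v4, per the labels' protocols, so reads are not tagged by molecule. The authors deposited 1 table of raw counts per FlyBase feature, with 6 columns. STAR, DESeq2 and BDGP6 are named, per the submitters' processing notes. The counting program, annotation release and use of strand are not given in the sources used here.

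Identifiers were matched to Ensembl 115 (BDGP6.54), and 23851 of 23932 matched. filterByExpr of edgeR 4.0.16 (minimum 10 counts, R 4.3.3) kept 9932 features. Library sizes were scaled with TMM factors (0.973 to 1.02) and group was tested by edgeR's quasi-likelihood F test with Benjamini-Hochberg adjustment over all features, at 0.05. Standard errors are the absolute log2 fold change over the square root of F. A count of 0 allows up to 3 counts (0.0681 to 0.101 CPM), for counting error only. On simulated data, 167 of 200 genes changed 4-fold were recovered by edgeR, with 16 false calls among 9532 genes. The changed genes were drawn only from genes above a minimum mean count, so recovery below it is not known. Only 4-fold changes were simulated, so recovery of smaller ones is not known. The median absolute log2 fold change of the calls, 0.97, is among those smaller sizes. Alternatives included DESeq2 1.42.0 and limma-voom (limma 3.58.1). Named list genes are those called, the highest of each list, repo, Drgx, and the genes most like each member; all others were named after their values were seen. Members and lists were chosen with earlier results of these data known.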

Additional observations from a re-analysis of the deposited data

How the results depend on the processing

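The log2 fold changes of the members kept their sign and moved by less than the spread between replicates in every fit run. When 1 library was left out they ran from −0.36 to −0.32 for Atpalpha, 1.30 to 1.71 for nrv1, 0.35 to 0.42 for nrv2 and −0.33 to −0.24 for nrv3. The count of called features was 617, went to 952 with DESeq2 (381 higher, 571 lower) and ran from 399 to 556 with 1 library left out, 399 being without control replicate 2. Sodium channel calls went from 1 to 2 with at least 10 counts in every library, DESeq2 or limma-voom, para being the added call, and ran from 0 to 1 with 1 library left out. Leak and inward rectifier channel calls went from 1 to 2 with no filter, at least 10 counts in every library, DESeq2 or limma-voom, and ran from 1 to 2 with 1 left out. Energy supply calls ran from 1 to 2 with 1 left out, and septate junction calls from 4 to 6. The share of nrv3 in the summed beta level in control went from 55.3% to 49.0% with the longest transcript as length, and in knockdown from 43.0% to 37.2%. Replicate numbers showed no sign of pairing, with r of deviations of −0.0591 to 0.0246 for equal numbers and −0.0477 to 0.0677 for other pairs. With so few libraries this check cannot exclude pairing. With the replicate block 556 features were called and all 4 members remained among the calls. Of 323 alternative fits of 25 named genes (list genes, markers and Drgx), 9 lost a call (na and PyK), 13 gained one (para, Task7, onecut and stg) and 0 reversed a call. The called markers Gs2, loco, nSyb, brp, Syt1, fne, Sox102F, dac and bi were not among those genes. Without control replicate 1 the nrv1 value was 1.30, the lowest of its fits.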
